A study of Mus musculus with 6 samples.

Results

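The insulin-like growth factor (IGF) system was followed here through 10 genes: the ligands Igf1 and Igf2, the receptors Igf1r and Igf2r, and the binding proteins Igfbp2, Igfbp3, Igfbp4, Igfbp5, Igfbp6 and Igfbp7. They were chosen by gene symbol, and all 10 were found among the 46095 rows of the count table. All 10 also passed the filter on low counts that left 14757 genes for testing. The cells were brown adipocytes induced in culture from the stromal vascular fraction of brown fat, the non-adipocyte cells of a digested fat pad, of C57BL/6 mice aged 5 weeks. Controls (3 libraries, titled CTRL) were compared with U-IRX3ov (3 libraries, titled KI), a genotype named for IRX3 overexpression. The sources used here give neither the construct and its promoter nor what the control mice carry. Every culture, of either genotype, was induced for 2 days with IBMX (0.5 mM), triiodothyronine, rosiglitazone and dexamethasone (each at 1 µM) and insulin (5 µg/mL), and then kept for 6 days without the IBMX and dexamethasone. Since insulin was present throughout, no value below comes from cells without a hormone acting on this receptor family. The labels do not say whether libraries of a group came from separate animals or cultures. The p-values set the difference between groups against the spread between libraries of a group, which may be technical.

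IGF1 and IGF2 are small secreted growth factors related to insulin. Both signal through the IGF1 receptor, a tyrosine kinase that resembles the insulin receptor, whereas the IGF2 receptor has no kinase and carries IGF2, and lysosomal enzymes tagged with mannose 6-phosphate, to lysosomes. IGFBP proteins bind the ligands outside the cell with high affinity, hold them away from the receptors and release them when proteases cut the binding protein. IGFBP7 is the relative with low IGF affinity. In fat, IGF1 and insulin support the differentiation of preadipocytes, and stromal cells are a source of binding proteins.

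Library totals ran from 20094799 to 26755870 counts. Irx3, the gene named in the genotype, had 131, 142 and 138 raw counts in control libraries 1, 2 and 3. It had 163, 123 and 114 raw counts in U-IRX3ov libraries 1, 2 and 3. Raw counts depend on library depth. Scaled for depth, Irx3 had 4.78, 5.42 and 5.12 CPM in control and 6.27, 6.31 and 5.89 in U-IRX3ov libraries. Every U-IRX3ov library thus lay above every control library. The Irx3 log2 fold change of 0.27 ± 0.13 (SE) still did not pass the test (edgeR adjusted p = 0.112). These counts do not check the label, because it is unknown whether the table counts reads of the construct as Irx3. Of 13 brown adipocyte markers all were tested, of which 11 rose and 2 fell (edgeR adjusted p under 0.05). By the same test 20.2% of all genes tested rose and 21.1% fell. The 2 that fell were Zic1 (log2 fold change -0.88 ± 0.11 SE) and Lhx8 (-0.69 ± 0.12). Among those that rose, Ucp1 had 19.7 ± 1.19 CPM (SD, n = 3) in the controls and 240 ± 24.1 CPM in the U-IRX3ov libraries. CPM are read counts scaled to a common library size by TMM factors. Markers of the stroma moved the other way. Of 15 tested preadipocyte and fibroblast markers 13 fell and 0 rose (edgeR; 0 also at an unadjusted p under 0.05; Cd34 and Zfp423 did not pass), and their summed level was 6032 to 6202 CPM in control and 3762 to 4135 in U-IRX3ov libraries. All 12 tested macrophage and leukocyte markers fell, from a summed 493 to 605 CPM to one of 161 to 237. The T cell marker Cd3e was at or near 0 and not tested. Ucp1, Zic1, Lhx8, Cd34, Zfp423 and Cd3e were named after their values were seen.

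Of the 10 IGF genes, 9 were lower in U-IRX3ov cells and 1, Igfbp3, was higher (edgeR quasi-likelihood test, Benjamini-Hochberg adjusted p under 0.05 over all genes tested). Calls were common in this comparison: 41.3% of all genes tested passed in either direction, 21.1% lower and 20.2% higher. The median log2 fold change of the 10 genes was -0.55, beside -0.0047 for all genes tested. In each of the 9 genes that fell, all U-IRX3ov libraries lay below all control libraries, which held for 25.9% of all genes tested. Igfbp3 had the opposite order, as did 24.9% of all genes. The summed level of the 10 genes was 1152 to 1186 CPM in control libraries and 727 to 772 in U-IRX3ov libraries. In cells measured in bulk, fewer cells of a type and less RNA per cell cannot be told apart, which holds for each fall below. The part of the lower stromal and leukocyte markers in these falls was not tested.

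**Figure D1:**
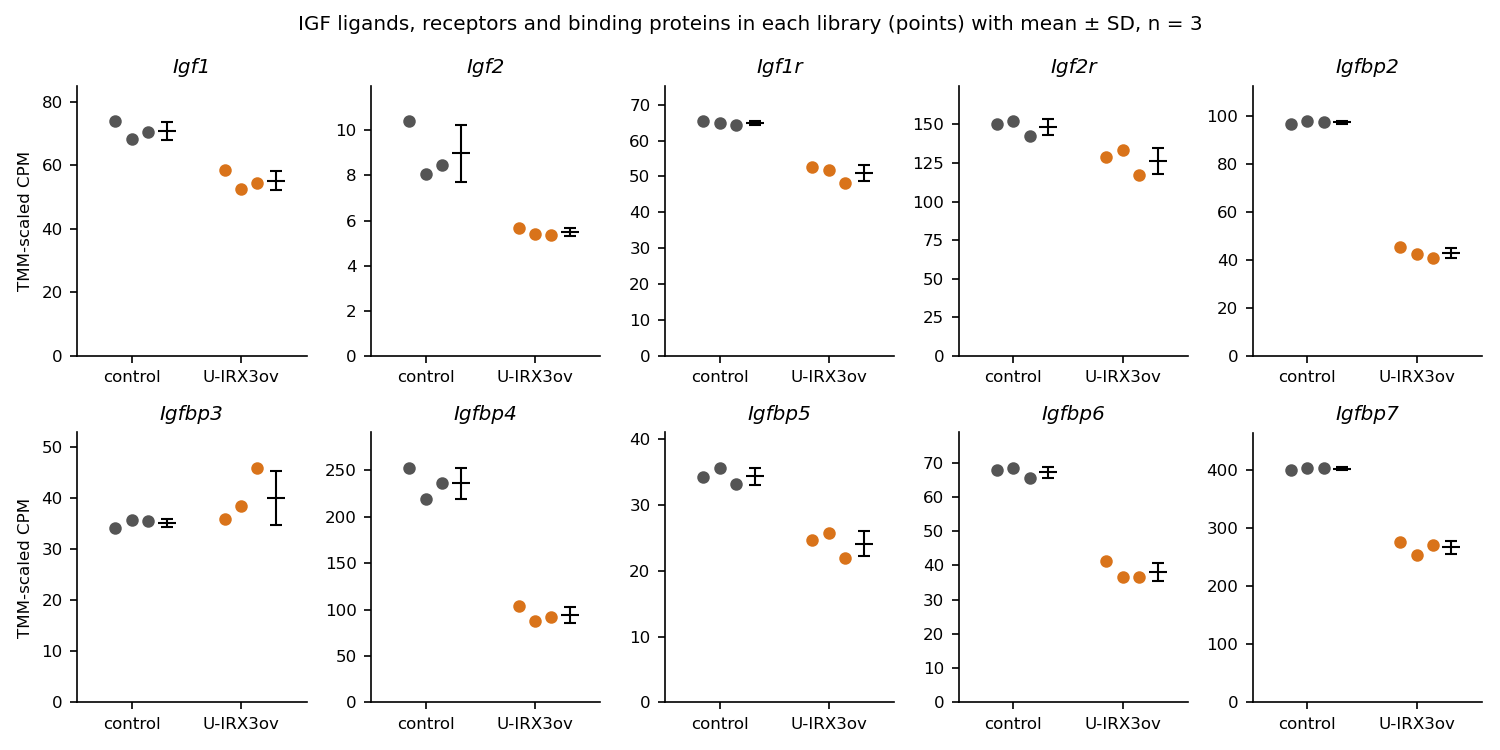
Level of each of the 10 genes in TMM-scaled CPM on a linear axis from 0, with 1 point per library (grey control, orange U-IRX3ov) and the mean ± SD of 3 libraries beside the points. No gene has overlapping points, with Igfbp4 and Igfbp7 the farthest apart in CPM, and Igfbp3 has its U-IRX3ov points at 35.8, 38.3 and 45.9, just above its control points at 34.1, 35.7 and 35.4.

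Among the ligands, Igf1 was the more abundant per kilobase. Its CPM were 73.8, 68.1 and 70.4 in control libraries 1, 2 and 3 and 58.5, 52.5 and 54.4 in U-IRX3ov libraries 1, 2 and 3. The groups did not overlap, and the fall was to 78.0% of control (log2 fold change -0.36 ± 0.05 SE, edgeR adjusted p = 2.2e-06). Igf2, the ligand best known from fetal growth, had 10.4, 8.06 and 8.46 CPM in control and 5.69, 5.39 and 5.37 in U-IRX3ov libraries. Control library 1 was the highest of its group, yet even the lowest control value exceeded every U-IRX3ov value. Igf2 fell to 61.2% of control (log2 -0.71 ± 0.13, edgeR adjusted p = 5.49e-05). Per kilobase of annotated exon, Igf1 exceeded Igf2 by a ratio of 4.60 ± 0.43 in the controls and 5.81 ± 0.16 in the U-IRX3ov libraries (SD over 3 libraries), and the ranges of the groups did not overlap. Macrophages are a known source of Igf1, and the leukocyte markers fell by a median of 1.32 on the log2 scale in the same libraries. Their part in the fall of Igf1 was not tested.

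Igf1 lies on the plus strand of chromosome 10 at 87858265 to 87937042 (GRCm38, GENCODE). The annotated antisense gene Igf1os, which shares no exon bases with it, had at most 3 raw counts in a library. Igf2 lies on the minus strand of chromosome 7 at 142650766 to 142666816. Of its 5723 exonic bases 3596 also belong to Gm49394, a protein-coding gene model annotated on the same strand, and 98 to the antisense gene Igf2os. How the counting shared those reads could therefore change the level of Igf2. Igf2os itself had 0 to 2 raw counts in a library.

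Both receptors fell by less than most of the binding proteins. Igf1r, the kinase receptor for both ligands, had 65.4, 64.9 and 64.2 CPM in control and 52.5, 51.8 and 48.3 in U-IRX3ov libraries. Controls lay close together and well above the highest U-IRX3ov library. Its fall was to 78.5% of control (log2 -0.35 ± 0.05 SE, edgeR adjusted p = 2.47e-06). Igf2r, the clearance receptor, had 150, 152 and 143 CPM in control and 129, 133 and 117 in U-IRX3ov libraries. This was the smallest fall of the 9, to 85.2% of control (log2 -0.23 ± 0.04, edgeR adjusted p = 1.24e-04), with U-IRX3ov library 3 the lowest of all. Per kilobase, the ratio of Igf2r to Igf1r had means of 4.13 ± 0.11 in the controls and 4.48 ± 0.14 in the U-IRX3ov libraries, without overlap. Igf1r lies on the plus strand of chromosome 7 at 67952827 to 68233668 and Igf2r on the minus strand of chromosome 17 at 12682406 to 12769664. Airn, the long noncoding RNA that overlaps Igf2r on the other strand and silences its paternal copy in many tissues, shares no exon bases with it. At 0.509 ± 0.224 CPM in control and 0.566 ± 0.137 in U-IRX3ov cells, Airn did not pass the test (log2 0.16 ± 0.44, edgeR adjusted p = 0.803).

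The insulin receptor went the other way. Insr had 192, 200 and 190 CPM in control and 231, 252 and 246 in U-IRX3ov libraries, a rise with a log2 fold change of 0.33 ± 0.04 (SE; edgeR adjusted p = 1.01e-07). The ratio of Insr to Igf1r per kilobase was 3.58, 3.77 and 3.62 in control and 5.38, 5.95 and 6.23 in U-IRX3ov libraries. Its mean went from 3.66 ± 0.10 to 5.85 ± 0.43 (SD, n = 3), and no U-IRX3ov library came near the control range. The ratios are given as descriptions, since with 3 libraries a group a two-sided exact permutation test can reach no p below 0.1.

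**Figure D2:**
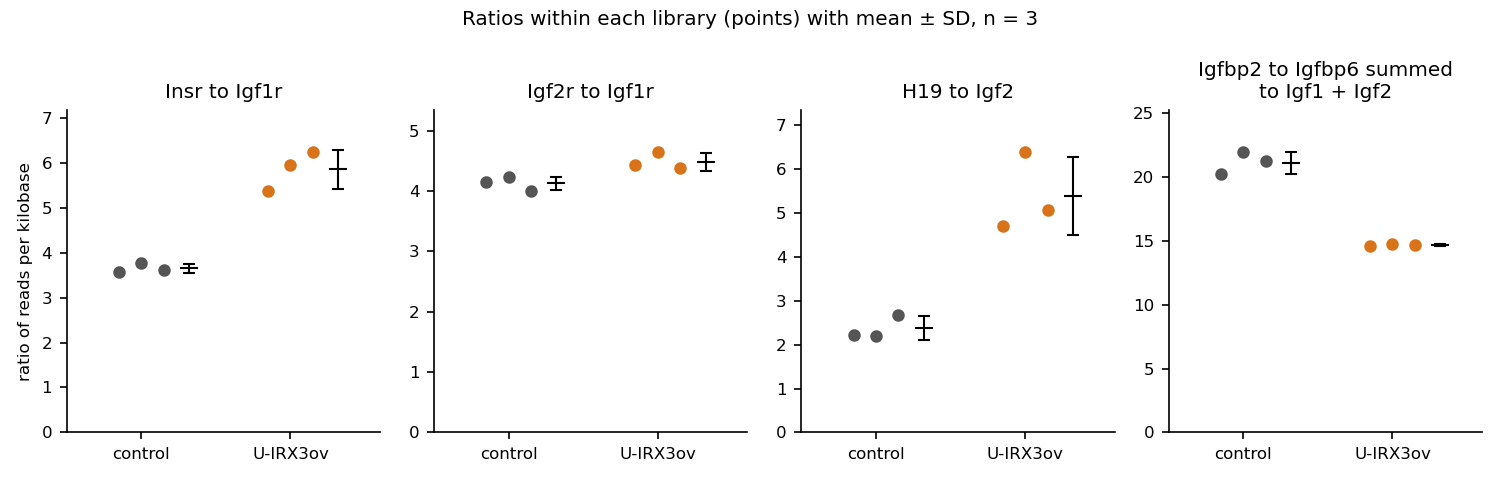
Ratios of reads per kilobase of exon within each library on linear axes from 0, with 1 point per library (grey control, orange U-IRX3ov) and the mean ± SD of 3 libraries. Insr to Igf1r, Igf2r to Igf1r and H19 to Igf2 are higher in every U-IRX3ov library than in any control library, and the summed Igfbp2 to Igfbp6 over the summed ligands is lower, at 14.6 to 14.8 against 20.2 to 21.9.

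Igfbp4 and Igfbp2 had the largest falls of the 10 genes, and Igfbp3 was the exception in direction. Sequence upstream of these genes is shown because it lets their start regions be compared directly. Each line gives the 250 bases before the start annotated by RefSeq (GRCm38.p6), 5′ to 3′ on the gene's own strand, with capitals for a TATA box (TATAAA) or a GC box (GGGCGG) on either strand.
Igfbp4, chr11:99040994-99041243, plus strand: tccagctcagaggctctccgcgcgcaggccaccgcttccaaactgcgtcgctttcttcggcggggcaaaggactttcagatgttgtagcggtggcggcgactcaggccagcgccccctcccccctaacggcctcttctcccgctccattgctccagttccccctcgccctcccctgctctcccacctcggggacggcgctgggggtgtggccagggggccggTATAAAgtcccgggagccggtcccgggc
Igfbp2, chr1:72824230-72824479, plus strand: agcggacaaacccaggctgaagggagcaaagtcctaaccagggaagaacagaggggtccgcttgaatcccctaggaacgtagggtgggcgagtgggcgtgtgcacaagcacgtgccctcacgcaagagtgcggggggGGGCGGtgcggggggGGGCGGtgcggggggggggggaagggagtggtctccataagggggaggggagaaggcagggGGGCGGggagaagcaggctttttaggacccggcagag
Igfbp3, chr11:7213924-7214173, minus strand: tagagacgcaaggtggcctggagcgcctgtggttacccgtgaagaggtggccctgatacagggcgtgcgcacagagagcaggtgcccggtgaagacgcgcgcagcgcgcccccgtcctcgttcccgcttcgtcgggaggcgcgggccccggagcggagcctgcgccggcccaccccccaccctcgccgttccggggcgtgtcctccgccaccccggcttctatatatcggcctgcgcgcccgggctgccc
The Igfbp4 window holds a TATA box that starts 28 bases before the start site. The Igfbp2 window holds 3 GC boxes, where the window of a second annotated Igfbp2 start further downstream, not shown, holds none. The Igfbp3 window holds neither of these exact sequences. Variants of a TATA box with other letters were not searched for in any window. RefSeq gave 14 windows of 300 bases (250 before to 50 after a start) for the 10 genes, all of which matched by symbol. A TATA box was found in 2 of the 14 (Igfbp4 and Igfbp6), beside 13.6% of all 32851 windows. The Igfbp6 match lay on the opposite strand, at -148 from the start site. A GC box was found in 6 of the 14, beside 35.7% of all windows. The Iroquois site ACANNTGT, a sequence that IRX proteins are known to bind, was in 0 of the 14, beside 7.38% of all windows. Neither the FOXO site TGTTTAC (3.65% of all windows) nor the C/EBP site TTGCGCAA (0.183%) occurred in the 14. No match says only that these letters are not in these windows. The median GC content was 64.0% in the 14 windows and 52.7% in all.

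Igfbp4, a binding protein that restrains IGF action near the cell, had 253, 219 and 237 CPM in control and 104, 87.4 and 92.1 in U-IRX3ov libraries. Even the lowest control lay far above the highest U-IRX3ov library. Expression fell to 40.1% of control (log2 -1.32 ± 0.07 SE, edgeR adjusted p = 2.32e-07), and 1.42% of all genes tested had a log2 fold change this low or lower. Igfbp2, which is high in preadipocytes and can also bind integrins, had 96.9, 98.0 and 97.6 CPM in control and 45.3, 42.5 and 40.9 in U-IRX3ov libraries. Its controls were among the most even of the 10 genes, with a coefficient of variation of 0.560%. Igfbp2 fell to 44.1% of control (log2 -1.18 ± 0.05, edgeR adjusted p = 6.45e-17), the smallest p of the 10, and 2.01% of all genes tested lay as low.

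Igfbp6, a binding protein with a preference for IGF2, came next in size. It had 67.8, 68.5 and 65.4 CPM in control and 41.1, 36.5 and 36.5 in U-IRX3ov libraries, and it fell to 56.8% of control (log2 -0.82 ± 0.06 SE, edgeR adjusted p = 2.63e-12). Its groups were far apart relative to their spread. Igfbp7, a matrix-associated protein with low IGF affinity that is found around vessels and stroma, was the most abundant of the 10 per kilobase. It had 400, 403 and 404 CPM in control and 276, 254 and 270 in U-IRX3ov libraries, a fall to 66.4% of control (log2 -0.59 ± 0.04, edgeR adjusted p = 2.99e-13). Of its 1209 exonic bases 85 overlap Polr2b on the other strand, and Polr2b did not pass the test (log2 -0.04 ± 0.05, edgeR adjusted p = 0.574). Igfbp5, which binds to matrix and hydroxyapatite as well as to IGFs, had 34.2, 35.6 and 33.1 CPM in control and 24.6, 25.8 and 22.0 in U-IRX3ov libraries. This was a fall to 70.4% of control (log2 -0.51 ± 0.07, edgeR adjusted p = 6.95e-07), again without overlap.

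Igfbp3, the main carrier of IGFs in blood, had 34.1, 35.7 and 35.4 CPM in control and 35.8, 38.3 and 45.9 in U-IRX3ov libraries. U-IRX3ov library 1 lay only just above the highest control, and library 3 stood well above the other two. At 114% of control (log2 0.19 ± 0.07 SE) the difference passed the threshold narrowly (edgeR adjusted p = 0.0469). Without U-IRX3ov library 3 the log2 fold change was 0.08 (edgeR adjusted p = 0.389). The call was lost in 8 of 13 other analyses, among them the fits without control library 1 (edgeR adjusted p = 0.139), control library 2 (0.0777), control library 3 (0.0735) and U-IRX3ov library 2 (0.0581). It stayed positive in sign in all 13, while the 9 genes that fell each passed in all 13.

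**Figure D3:**
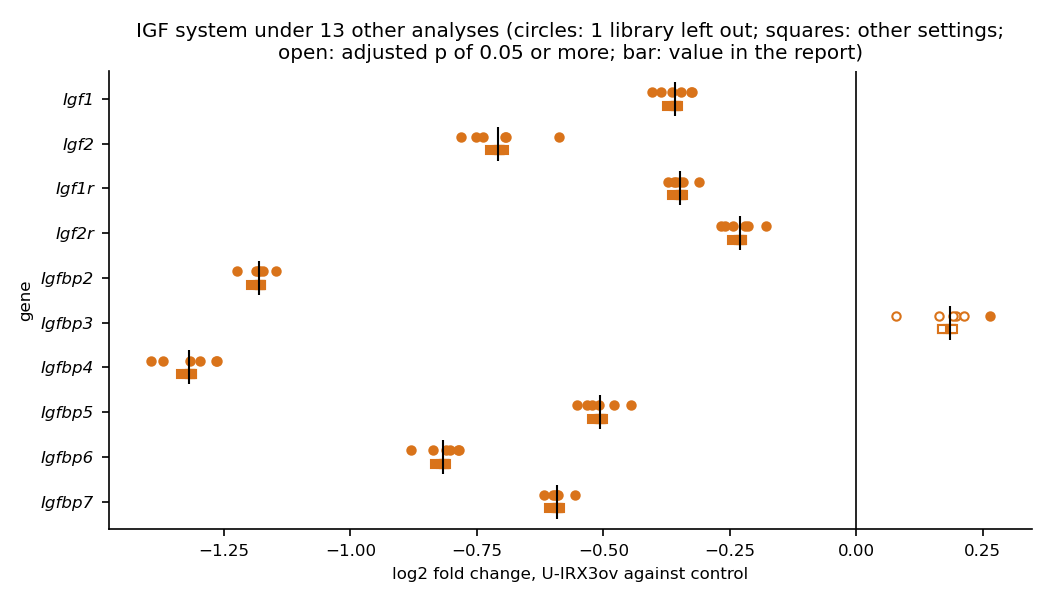
Log2 fold change of U-IRX3ov against control for each of the 10 genes on the x axis under 13 other analyses, as circles for fits without 1 library and squares for other settings, with open symbols for an adjusted p of 0.05 or more and a black bar for the value in the text. The 9 genes that fell stay left of 0 with filled symbols, and Igfbp3 runs from 0.08 to 0.26 with mostly open ones.

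Several binding protein genes are neighbours. Igfbp2 and Igfbp5 are a converging pair on chromosome 1, at 72824503 to 72852474 on the plus strand and 72857932 to 72874884 on the minus strand, with 5457 bases between them. Their log2 fold changes were -1.18 and -0.51. Igfbp3 lies on the minus strand of chromosome 11 at 7206086 to 7213923, with 3539 bases between it and Igfbp1. Igfbp1, the binding protein that the liver makes in fasting, had 0 counts in all 6 libraries, which allows a level of up to 3 counts, or 0.110 to 0.155 CPM across libraries, by counting error only. Igfbp4 lies elsewhere on chromosome 11, at 99041244 to 99054392 on the plus strand. Igfbp6 is on the plus strand of chromosome 15 at 102144362 to 102149511, and Igfbp7 on the minus strand of chromosome 5 at 77349240 to 77408041.

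For an order of levels the genes were compared per kilobase of exon (RPKM, which are CPM divided by the exon length in kilobases), with lengths from GENCODE, which may not be the annotation the authors counted with. In control cells Igfbp7 led with 332 ± 1.63 RPKM (SD, n = 3), followed by Igfbp6 with 60.4 ± 1.46, Igfbp4 with 53.5 ± 3.85 and Igfbp2 with 52.8 ± 0.296. The values of Igfbp4 and Igfbp2 overlapped, so their order is not set, and every other neighbouring pair was separate. Below them came Igf2r (15.9 ± 0.532), Igfbp3 (11.2 ± 0.278), Igf1 (7.15 ± 0.291), Igfbp5 (5.71 ± 0.212), Igf1r (3.86 ± 0.0346) and Igf2 (1.57 ± 0.219). In U-IRX3ov cells Igfbp7 had 221 ± 9.56 RPKM and Igfbp6 34.2 ± 2.41. Igfbp2 (23.2 ± 1.20) and Igfbp4 (21.4 ± 1.92) again overlapped. Igf2r (13.6 ± 0.894) and Igfbp3 (12.8 ± 1.68) overlapped there too, unlike in control cells. The lower places were the same as in control, with Igf1 at 5.57 ± 0.309, Igfbp5 at 4.02 ± 0.326, Igf1r at 3.03 ± 0.135 and Igf2 at 0.958 ± 0.0314.

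Because the binding proteins changed by unequal amounts, and Igfbp3 alone did not fall, their mix changed. As shares of all Igfbp2 to Igfbp7 reads per kilobase, Igfbp7 made up 63.8%, 64.7% and 64.7% in control libraries 1, 2 and 3 and 69.4%, 69.5% and 70.4% in U-IRX3ov libraries. Igfbp4 went from 10.4% ± 0.711 to 6.76% ± 0.342 (SD, n = 3) and Igfbp2 from 10.2% ± 0.0912 to 7.35% ± 0.338, each without overlap between groups. Igfbp3 made up 2.10%, 2.22% and 2.19% in control and 3.48%, 4.06% and 4.61% in U-IRX3ov libraries, so its share was higher in all 3 although its level was barely so. Igfbp6 (11.7% ± 0.290 and 10.8% ± 0.461) and Igfbp5 (1.11% ± 0.0430 and 1.27% ± 0.137) moved least in share. The shares depend on the lengths used, and without division by length Igfbp7 made up 46.1% in control and 52.7% in U-IRX3ov cells. Set against the summed ligands per kilobase, the binding proteins other than Igfbp7 had a ratio of 21.1 ± 0.864 (SD, n = 3) in the controls and 14.7 ± 0.0937 in the U-IRX3ov libraries.

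**Figure D4:**
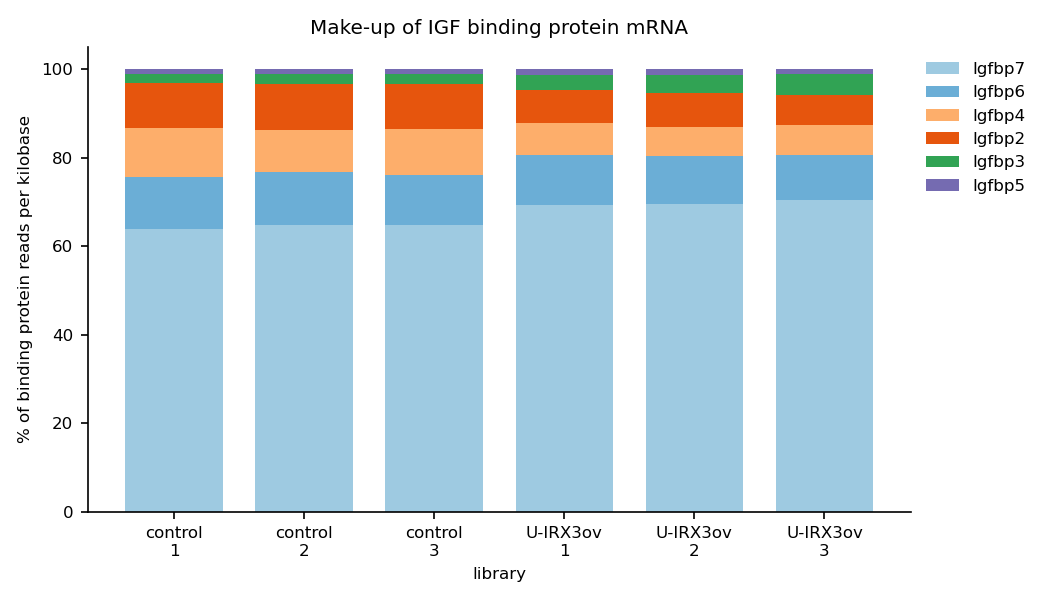
Stacked bars, 1 per library, of the percent of binding protein reads per kilobase that each of Igfbp2 to Igfbp7 contributes. Igfbp7 grows from 64.4% (mean of 3 control libraries) to 69.8% (mean of 3 U-IRX3ov libraries), Igfbp3 from 2.17% to 4.05%, and the bands of Igfbp4 and Igfbp2 shrink.

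Genes that act on the ligands and binding proteins outside the cell changed in both directions. In the list of carrier, protease and inhibitor genes 5 of 9 tested members fell, 1 rose and 3 did not pass, with a median log2 fold change of -0.53, beside 21.1% lower and 20.2% higher of all genes tested. Pappa, the metalloprotease pappalysin that cuts IGFBP4 and IGFBP5 to free IGF, had 47.6, 44.7 and 44.9 CPM in control and 29.3, 24.6 and 24.9 in U-IRX3ov libraries (log2 -0.79 ± 0.07 SE, edgeR adjusted p = 1.78e-10). Stc2, a stanniocalcin that blocks pappalysin, rose from a low level, with 1.64, 2.25 and 1.45 CPM in control and 3.38, 3.59 and 3.46 in U-IRX3ov libraries (log2 0.96 ± 0.21, edgeR adjusted p = 5.16e-04). Pappa and its substrate Igfbp4 thus fell and Stc2 rose, with no overlap between groups in any of the 3 genes. The other stanniocalcin, Stc1, was more abundant in CPM than Stc2 and did not share its rise. Its means were 7.30 CPM in control and 6.45 in U-IRX3ov libraries, with overlap between groups. The ratio of Igfbp4 to Pappa CPM, which is not corrected for length and serves only to compare libraries, had means of 5.16 ± 0.23 in the controls and 3.60 ± 0.09 in the U-IRX3ov libraries. Htra1, a serine protease that cuts binding proteins (log2 -0.53 ± 0.06), the gelatinase Mmp2 (-1.24 ± 0.06), its inhibitor family member Timp1 (-0.80 ± 0.04) and the proteoglycan Esm1 (-1.36 ± 0.21, at 3.80 CPM in control) fell as well. The related Pappa2 (0.27 ± 0.22), Stc1 (-0.18 ± 0.13) and Htra3 (0.04 ± 0.05) did not pass. Igfals, whose product joins IGFBP3 and IGF in the blood complex, had at most 8 raw counts in a library and was not tested, and Igfbpl1 had at most 2. Preadipocyte and fibroblast markers had a median of -0.61 beside these falls.

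**Figure D5:**
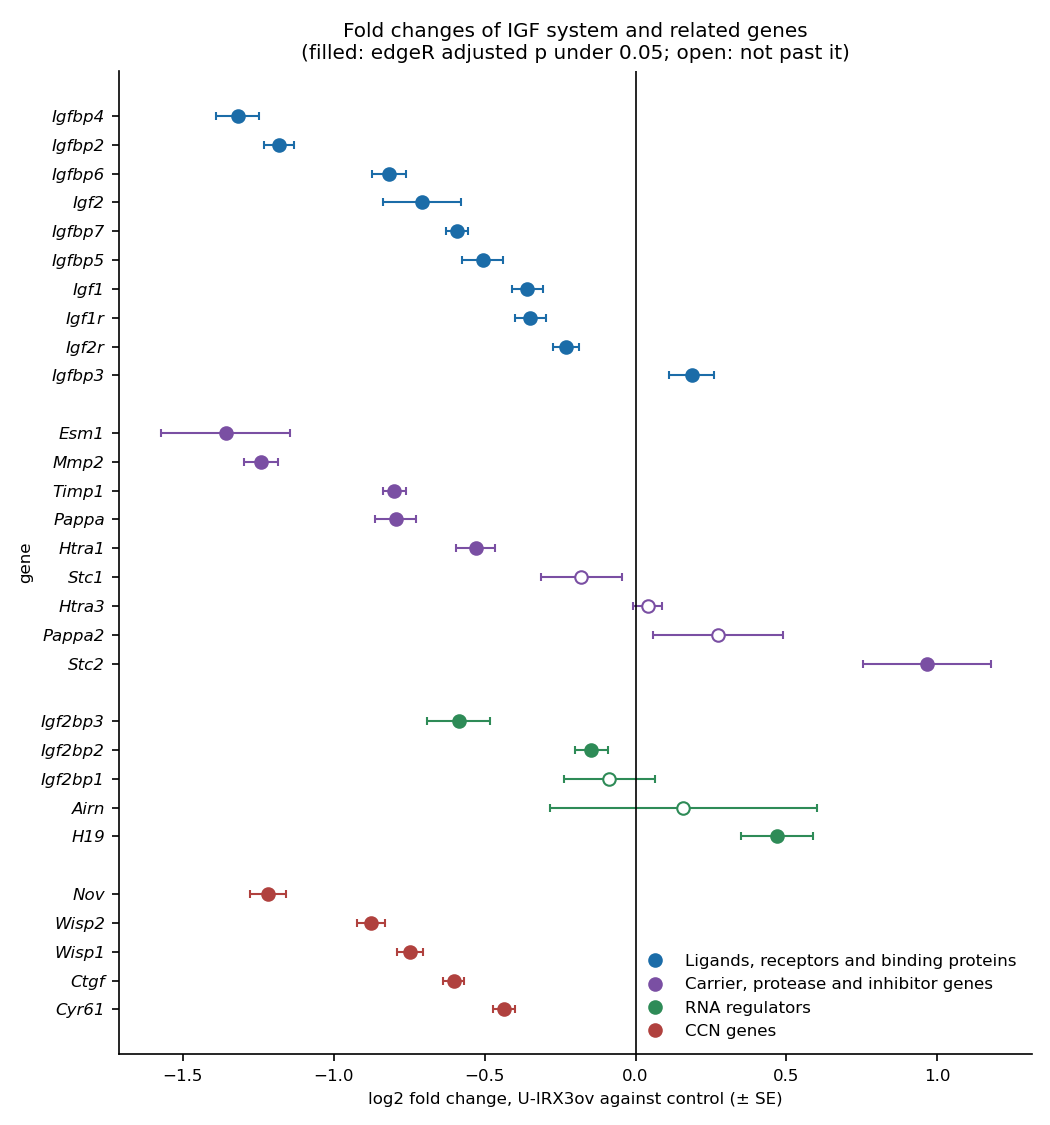
Log2 fold change ± SE of U-IRX3ov against control for the 10 IGF genes and the tested genes of 3 related lists, with filled points for an edgeR adjusted p under 0.05. Stc2 (0.96), H19 (0.47) and Igfbp3 (0.19) are the filled points right of 0, and all 5 CCN genes lie left of it.

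Of the RNA partners of Igf2, H19 rose and Igf2bp3 fell. H19, the noncoding RNA that shares enhancers with Igf2 and is expressed from the other parental copy, lies 72622 bases from it. H19 had 9.97, 7.64 and 9.76 CPM in control and 11.5, 14.8 and 11.7 in U-IRX3ov libraries, a rise (log2 0.47 ± 0.12 SE, edgeR adjusted p = 0.00235) without overlap. H19 also overlaps a microRNA gene, Mir675, and small annotated RNAs on the other strand, so its counts may hold their reads. The ratio of H19 to Igf2 per kilobase was 2.23, 2.21 and 2.68 in control and 4.70, 6.38 and 5.08 in U-IRX3ov libraries. Igf2bp3, an RNA-binding protein that binds Igf2 mRNA, had 11.9, 11.7 and 11.1 CPM in control and 7.38, 8.01 and 7.75 in U-IRX3ov libraries (log2 -0.59 ± 0.11, edgeR adjusted p = 5.05e-05). Its relative Igf2bp2 passed narrowly (log2 -0.15 ± 0.06, edgeR adjusted p = 0.0358), a call lost without control library 1, control library 3, U-IRX3ov library 1 or U-IRX3ov library 2 (edgeR adjusted p of 0.0684, 0.104, 0.132 and 0.125) and under DESeq2 (adjusted p = 0.098). Igf2bp1 did not pass (-0.09 ± 0.15). In this list 2 of 5 tested members fell and 1 rose, with a median of -0.09, beside the same shares of all genes.

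All 5 tested CCN genes, matricellular proteins with an IGFBP-like domain at one end, fell, with a median log2 fold change of -0.75. Nov, also called Ccn3, fell most, from a mean of 84.8 to one of 36.4 CPM (log2 -1.22 ± 0.06 SE, edgeR adjusted p = 6.54e-15). Wisp2 (-0.88 ± 0.05), Wisp1 (-0.75 ± 0.04), Ctgf (-0.60 ± 0.03) and Cyr61 (-0.44 ± 0.04) followed, and Wisp3 had 0 counts in every library. The share of all genes tested that fell was 21.1%. Of 10 pericyte and smooth muscle markers 6 fell and 2 rose, from a summed 4819 to 5065 CPM to one of 3026 to 3352, and their part in the falls of the CCN genes was not tested.

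Receptor signalling genes changed in both directions. Of 30 tested insulin and IGF receptor signalling genes, Insr among them, 12 rose, 4 fell and 14 did not pass, with a median log2 fold change of 0.10, beside 20.2% higher and 21.1% lower of all genes tested. Without 1 library the count was 9 to 14 higher and 2 to 4 lower, with the 2 lower in the fit without U-IRX3ov library 3. The kinase Akt2, the main Akt of insulin action in fat, rose (log2 fold change 0.52 ± 0.04 SE, with means of 172 and 245 CPM), as did Mtor (0.62 ± 0.06) and the translation repressor Eif4ebp1 (0.34 ± 0.04). Among those that fell, named after their values were seen, were the phosphatase Ptpn1 (-0.17 ± 0.05) and the adaptors Grb2 (-0.16 ± 0.05) and Shc1 (-0.10 ± 0.04). Adipocyte markers had 10 of 12 members higher and 0 lower (edgeR; 0 lower also at an unadjusted p under 0.05), from a summed 35644 to 36210 CPM in control to 46031 to 47337 in U-IRX3ov libraries.

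The growth hormone axis, which drives Igf1 transcription in liver and fat through STAT5, had 3 of 8 tested genes lower and 2 higher, with a median of -0.04, beside 21.1% and 20.2% of all genes tested. The higher ones were Cish and, barely, Stat5a (edgeR adjusted p = 0.0483, named after its value was seen). In every fit without 1 library, 1 gene of the list was higher and 3 were lower. The receptor Ghr had 286, 282 and 270 CPM in control and 217, 224 and 234 in U-IRX3ov libraries (log2 -0.31 ± 0.04 SE, edgeR adjusted p = 1.33e-07), beside -0.36 ± 0.05 for Igf1. Jak2, its kinase (-0.15 ± 0.04), and the cytokine-signalling inhibitor Socs3 (-0.71 ± 0.12) fell as well. Cish, a STAT5 target and inhibitor, rose (0.44 ± 0.07), from 20.4, 21.1 and 21.7 CPM in control to 28.4, 28.4 and 29.4 in U-IRX3ov libraries. The rest of the list, Socs2 (-0.05 ± 0.11), Socs1 (-0.03 ± 0.23) and Stat5b (-0.0002 ± 0.06), did not pass. These were also named after their values were seen. Neither Ghr nor Cish overlapped between groups.

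Genes of the mannose 6-phosphate route, which Igf2r serves by carrying tagged enzymes to lysosomes, mostly fell. Of 19 tested members 15 fell, 1 rose and 3 did not pass, with a median log2 fold change of -0.36, beside 21.1% of all genes tested that fell and 20.2% that rose. The other mannose 6-phosphate receptor, M6pr, had a log2 fold change of -0.22 ± 0.04, beside -0.23 ± 0.04 for Igf2r. The lysosomal hydrolases Gusb (-0.69 ± 0.05) and Hexa (-0.55 ± 0.04), named for their small p, fell further than either receptor. This did not hold for the most abundant members in CPM, the cathepsins Ctsd and Ctsb. Ctsd (-0.02 ± 0.03) did not pass, and Ctsb (-0.16 ± 0.03) fell by less than either receptor. The member that rose was the cholesterol carrier Npc2 (0.19 ± 0.04). Npc2, M6pr, Ctsd and Ctsb were named after their values were seen. Macrophages are rich in lysosomal enzymes, and all 12 tested leukocyte markers were lower in the same libraries, whose part was not tested.

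Likeness of pattern was measured as Pearson r of log2 CPM over the 6 libraries, among 8986 genes, for the ligand, the receptor and the binding protein with the smallest p in their role. Closest to Igf1 were Clcn7 (0.997), Ccl7 (0.997) and Srpx2 (0.996), closest to Igf1r were Galnt2 (0.9998), Fn1 (0.9995) and Tubb6 (0.9991), and closest to Igfbp2 were Cemip (0.9998), Fbln2 (0.9997) and Lamb2 (0.9996). Their log2 fold changes still differed widely, from -0.19 for Galnt2 to -1.59 for Cemip. The values are descriptions, since the 6 points are 2 groups of libraries and share their depth and scaling. The r was above 0.95 for 725 genes with Igf1, 910 with Igf1r and 1102 with Igfbp2.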

How the data were processed

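RNA was sequenced from 3 control and 3 U-IRX3ov libraries, and the labelled genotype set the groups. The authors deposited raw read counts per gene symbol, not normalized. Per the submitters' processing notes, HISAT2 2.0.4 and mm10 were used. The sources used here name no counting program, annotation or strand setting. Genes were filtered with filterByExpr, scaled by TMM and tested in edgeR 4.0.16 (R 4.3.3; quasi-likelihood F test, robust, a model of group alone), with Benjamini-Hochberg adjustment over all 14757 genes tested. The threshold was an adjusted p of 0.05. The standard error is the log2 fold change divided by the square root of F. CPM are TMM-scaled, and RPKM divide them by the union of GENCODE exons (GRCm38, the assembly of mm10). Chi-square per degree of freedom was 2.99 to 5.20 between libraries within a group and 64.5 to 75.7 across groups, above sampling noise in every pair.

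The 10 genes and all lists were chosen with earlier results of these data known. Named were all 10, every member of the carrier, RNA partner and CCN lists, and up to 4 members of each other list with the smallest p; further names are marked, and some list members are not reported here. Lists are described by counts and medians, without a set test. Alternatives were DESeq2 1.42.0, limma-voom (limma 3.58.1), other scalings, filters and thresholds, the replicate number as a block, and each library left out. The scripts were tested on simulated data.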

Additional observations from a re-analysis of the deposited data

How the results depend on the processing

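The 9 lower IGF genes stayed 9 in all 14 alternatives, from scalings and filters to DESeq2, limma-voom, an adjusted p of 0.01, the block and each library left out. The count of higher ones, which is Igfbp3 alone, was 0 under upper-quartile scaling (edgeR unadjusted p = 0.0301), DESeq2 (unadjusted p = 0.0303, adjusted p = 0.0842), limma-voom (unadjusted p = 0.0346, adjusted p = 0.0775) and an adjusted p of 0.01, and 0 to 1 without 1 library; the cause was not tested. All genes changed numbered 6098, 5126 with DESeq2, 4673 at an adjusted p of 0.01, and 5398 to 5701 without 1 library; upper-quartile scaling gave 2733 higher and 3324 lower. With the replicate number as a block 6173 genes passed, and no call on the 10 genes changed. The numbers share no stated animal or day: same-numbered libraries had correlations of deviations of 0.0222, 0.0745 and 0.0514, each the highest of its library, which is a hint from the data and not the design. Mesothelial and epithelial markers past the threshold numbered 1 to 2 without 1 library, with 1 in the fits without control library 2, control library 3 or U-IRX3ov library 2.

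Shares of binding protein mRNA moved with the length used. Without division by length, Igfbp2 to Igfbp7 in order made up 11.2%, 4.02%, 27.1%, 3.93%, 7.71% and 46.1% in control and 8.48%, 7.91%, 18.6%, 4.78%, 7.51% and 52.7% in U-IRX3ov cells. With the longest transcript, an alternative chosen after seeing the data, they made up 13.5%, 2.62%, 11.2%, 1.04%, 10.95% and 60.7% in control and 9.82%, 4.95%, 7.36%, 1.20%, 10.2% and 66.4% in U-IRX3ov cells. Each share kept its direction between groups. Of 908 values of 70 other named genes under alternatives, 893 kept their direction and side of the threshold, 10 lost the call and 5 changed sign. The sign changes came without 1 library in genes that had not passed, with log2 ranges of -0.021 to 0.078 for Htra3, -0.16 to 0.45 for Airn, -0.054 to 0.32 for Actn3 and -0.031 to 0.38 for Msln. Depth limits Igfals, Igfbpl1 and Igfbp1, where a change was not detectable.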

Other observations

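Imprinted growth genes other than Igf2 and Igf2r did not move together: 4 of 12 tested rose, 5 fell and 3 did not pass (median log2 fold change -0.01), beside 20.2% higher and 21.1% lower of all genes tested. Without 1 library 2 to 3 rose and 3 to 5 fell. Necdin, Ndn, fell (-0.65 ± 0.06), and the retrotransposon-derived Peg10 (0.45 ± 0.05) and the zinc finger gene Peg3 (0.36 ± 0.07) rose. Slc22a18 fell (-1.18 ± 0.32) from 1.97 CPM, a call lost without control library 3 (edgeR adjusted p = 0.0654).

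Markers of rarer cell types were low. Endothelial markers rose in 5 of 9 and fell in 0 (edgeR, 0 also at an unadjusted p under 0.05). Their summed level was 42.5 to 46.7 CPM in control and 64.7 to 68.7 in U-IRX3ov libraries. Endothelial cells also make Igfbp7, which fell, and their part in its level was not tested. Schwann cell markers rose in 3 of 5 and fell in 1, myogenic markers rose in 2 of 4 and fell in 1, and mesothelial and epithelial markers rose in 2 of 3. Summed Schwann cell markers had 70.5 to 81.7 CPM in control and 68.0 to 74.2 in U-IRX3ov libraries. For myogenic markers the sums were 21.9 to 25.9 and 19.2 to 23.9, and for mesothelial and epithelial ones 17.2 to 19.4 and 23.0 to 28.1. Those that fell, Ncam1 (-0.59 ± 0.06) and Acta1 (-0.45 ± 0.09), had the highest CPM of their lists. Of all genes tested, 20.2% rose and 21.1% fell. Some of these calls rest on few reads, with 5 to 36 raw counts in a library for Tnnt3 and 3 to 14 for Lrrn4. The Lrrn4 call was lost under DESeq2 (adjusted p = 0.0686). It was also lost without control library 2, control library 3 or U-IRX3ov library 2 (edgeR adjusted p of 0.0679, 0.0645 and 0.0832).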
